A study of Mus musculus with 12 samples.

Results

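Liver gene expression was compared between the arrays titled 42Y-1 and 42Y-2 and the arrays titled 6Y-1 and 6Y-2, over all 35556 transcript clusters of the array, and each difference was then placed against the arrays titled 16Y-1 and 16Y-2. The compared arrays are 4 of the 12 in the series. All 3 groups were taken as KK-Ay mice (KK.Cg-Ay/J), which carry the Ay allele of agouti on the KK background and become obese and diabetic, fed lab chow with no drug treatment named. The 42 of the titles stands for 42 weeks of age. The ages behind 6Y and 16Y are not stated for these arrays, so the groups are called by their titles. The sample records put 6Y and 16Y under T2D and 42Y under control, while the design text of the series lists 42Y with T2D. The other arrays in the fit were 42WKKA and 42WKKB from control KK mice and the controls 1-3 and 1-5, whose strain is not given by array. The arrays 6K-1 and 6K-2 were left out because their records conflict. Those of 42Y conflict too, but 42Y is a group of the comparison and was kept. Whether the arrays of a group are of different mice is not stated, and p-values then cover only the spread between arrays, which may be technical.

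The signal of the agouti gene (symbol a), which the Ay allele drives in every tissue from a foreign promoter, was checked first. On the log2 scale the 42Y arrays had 6.96 and 6.96, the 6Y arrays 7.06 and 6.78 and the 16Y arrays 6.89 and 6.80, against 5.20 to 5.51 in the 6 other arrays. The 42Y arrays thus had the agouti signal of the arrays recorded as T2D without conflict. The sample records name blood and the methods name liver, and the summed signal of 10 hepatocyte genes was 16.33 to 16.49 in all 12 arrays, against 9.82 to 10.40 for 12 leukocyte genes. Array medians lay between 4.74 and 4.88. Paired arrays correlated at r = 0.983 in 42Y, the lowest of the groups, and at up to 0.991 elsewhere.

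In the liver, fetal growth genes, cell cycle genes and collagens are high in the young animal and decline after weaning. Metabolic genes there follow the daily feeding cycle through the circadian clock, a loop in which ARNTL (BMAL1) and CLOCK switch on their own repressors. Acute stress adds heat shock chaperones, immediate early genes and chemokines within hours. Members of each of these groups differed between 42Y and 6Y.

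Of the 35556 clusters, 480 (1.35%) were called at an adjusted p under 0.05 (limma, Benjamini-Hochberg), 216 higher in 42Y (0.607%) and 264 lower (0.742%). By gene, with the brightest single-symbol cluster standing for each of 19938 genes, 322 (1.62%) were called, 131 higher (0.657%) and 191 lower (0.958%). In every one of the 480 clusters both 42Y arrays lay beyond both 6Y arrays, which calling on these same values largely ensures. A difference of at least 2 on the log2 scale was reached by 30 of the higher and 11 of the lower clusters. The calls rested on the 6Y arrays most of all. Without 6Y-1, 39 clusters were called and without 6Y-2, 37, against 253 without 42Y-1 and 463 without 42Y-2. Leaving out either 16Y array left 209. These counts include clusters outside the 480, above all without 42Y-1 and without 42Y-2, so they are not counts of calls kept. The calls also rested on the other groups for the estimate of spread. With the 6 KK-Ay arrays alone 40 clusters were called, and 2 with the 4 compared arrays alone.

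For 233 of the 480 clusters both 16Y arrays were nearer to the 42Y mean than to the 6Y mean, for 185 both were nearer to the 6Y mean, and 62 had 1 array on each side. This split turned round when either 42Y array was left out, to 92 nearer 42Y and 137 nearer 6Y without 42Y-1 and to 111 and 318 without 42Y-2. Those splits are of the clusters called in each such fit, many of them not among the 480. Of the 264 clusters lower in 42Y, 158 (59.85%) had both 16Y arrays nearer 42Y and 77 (29.17%) nearer 6Y. Of the 216 clusters higher in 42Y, 75 (34.72%) had both nearer 42Y and 108 nearer 6Y. The 16Y mean had covered a median share of 0.695 of the difference for the lower clusters and 0.445 for the higher clusters. The splits by direction also depended on single arrays. Without 42Y-2 the lower clusters had 66 nearer 42Y and 163 nearer 6Y, and the higher clusters had 14 nearer 42Y and 5 nearer 6Y without 6Y-1 and 14 and 8 without 6Y-2. Without 6Y-2 the lower clusters had 6 on each side. These are descriptions, since 16Y against 6Y and 42Y against 6Y share the 6Y arrays.

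A narrower reading of the same level gave smaller counts. The 16Y mean lay at 0.75 to 1.25 of the difference in 149 clusters (49 higher, 100 lower). In 103 clusters (38 higher, 65 lower) the whole 95% confidence interval of 42Y minus 16Y was smaller than 0.5 of the 42Y minus 6Y difference. On the other side, the interval of 16Y minus 6Y was smaller than 0.5 of that difference in 64 clusters (43 higher, 21 lower). Of the 233 clusters nearer 42Y, 94 were also called in 16Y against 6Y, a comparison that called 0.546% of all clusters (0.622% of genes), and 2 in 42Y against 16Y, which called 0.523% (0.366% of genes). Of the 185 nearer 6Y, none was called in 16Y against 6Y, although a call there needs a difference that this class makes small, and 67 were called in 42Y against 16Y. The classes were set by the same arrays, which largely fixes all of these counts, so the counts do not test the classes.

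**Figure D1:**
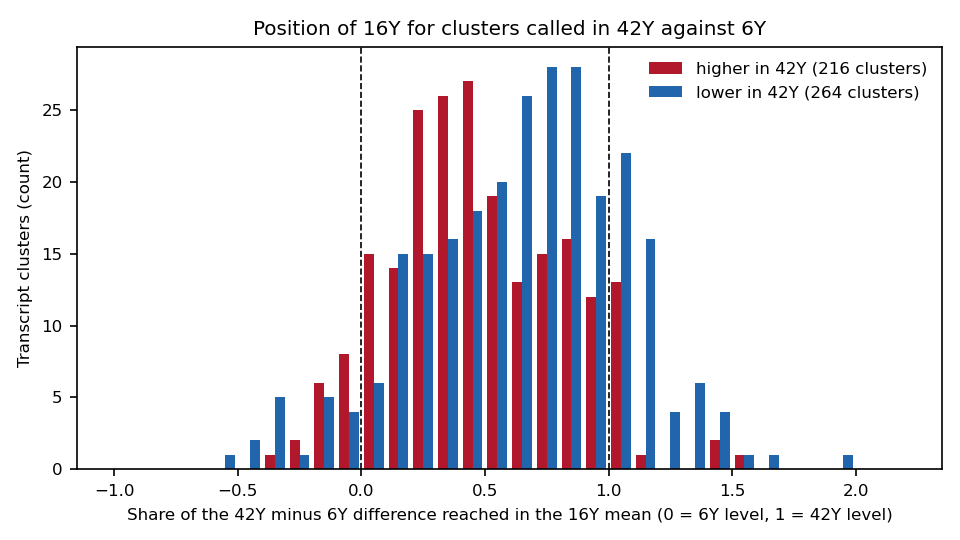
Histogram of the share of the 42Y minus 6Y difference that the 16Y mean had reached (x axis, a ratio of log2 differences; dashed lines at 0, the 6Y level, and 1, the 42Y level) for the called clusters (y axis, count), red for 216 clusters higher in 42Y and blue for 264 lower. The lower clusters centre on a median of 0.695 and the higher clusters on 0.445.

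Of 24 fetal and imprinted growth genes measured, 2 were called lower in 42Y and 1 higher, all 3 with 16Y nearer 42Y. Beside this and the list counts that follow, 0.958% of all genes were called lower and 0.657% higher. Igf2bp3, an RNA-binding protein of the fetal liver that binds Igf2 mRNA, had log2 signals of 6.88 and 6.27 in 6Y, 4.03 and 4.06 in 16Y and 4.14 and 3.90 in 42Y. The 16Y and 42Y arrays overlapped and both lay far below 6Y. In the 42WKK arrays Igf2bp3 was at 3.86 and 3.50, and in the 6K arrays at 6.80 and 6.16. The 42Y minus 6Y difference was -2.55 (standard error 0.21, adjusted p = 0.0056), and 42Y minus 16Y was -0.03 with a 95% interval from -0.52 to 0.47. Igf2bp3 kept its call without each of the 4 compared arrays. Mest, an imprinted gene expressed from the paternal copy in growing tissues, had 6.30 and 6.42 in 6Y, 4.98 and 4.75 in 16Y and 4.93 and 4.85 in 42Y, a difference of -1.48 (standard error 0.13, adjusted p = 0.00714). Here too 42Y and 16Y overlapped. Meg3, a maternally expressed imprinted long noncoding RNA, went the other way with 5.98 and 6.08 in 6Y, 6.85 and 6.95 in 16Y and 6.84 and 7.08 in 42Y (difference 0.92, adjusted p = 0.0274). The median difference of the list was -0.03, against -0.01 over all genes, and 15 of the 24 means were lower. Afp, the fetal albumin, and Igf2 lay near background in all 6 arrays, at 3.88 to 4.72.

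Some genes of cell division were lower as well. Ccnd1, cyclin D1, which drives entry into the cell cycle, had 7.50 and 8.11 in 6Y, 5.93 and 5.89 in 16Y and 5.85 and 6.28 in 42Y, a difference of -1.74 (standard error 0.30, adjusted p = 0.0424). The minichromosome maintenance helicase genes Mcm2, Mcm4 and Mcm5, which license DNA replication, fell by 0.80, 0.67 and 0.70. Both 16Y arrays were nearer 42Y than 6Y for all 4 genes. Of 52 cell cycle and DNA replication genes, these 4 were called, against 0.958% of all genes called lower. Of the 52, 46 had a lower mean in 42Y, and the median difference was -0.36 in 42Y against 6Y and -0.31 in 16Y against 6Y. The proliferation marker Mki67 did not pass, with 5.49 and 5.06 in 6Y and 4.64 and 4.44 in 42Y (difference -0.73, adjusted p = 0.146). The count of 4 dropped to 1 without 42Y-2 and to 0 without 42Y-1, 6Y-1 or 6Y-2.

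Single genes of other lists, or of none, were also lower with 16Y nearer 42Y. Loxl4, a lysyl oxidase that crosslinks collagen, is measured by several clusters, and the cluster 10467766 had 6.07 and 6.99 in 6Y, 2.76 and 3.28 in 16Y and 3.13 and 3.13 in 42Y. The difference was -3.40 (standard error 0.36, adjusted p = 0.011), 10.6-fold lower in 42Y, with 16Y and 42Y overlapping. A brighter Loxl4 cluster, 10467768, kept its call without each of the 4 compared arrays, at -3.36. Nrep, a small protein linked to tissue repair, had 8.47 and 8.25 in 6Y, 6.18 and 6.33 in 16Y and 6.64 and 5.92 in 42Y (difference -2.08, adjusted p = 0.0188). Igfbp3, the main circulating carrier of IGF1, had 7.99 and 8.30 in 6Y, 6.69 and 6.99 in 16Y and 6.90 and 6.60 in 42Y (difference -1.39, adjusted p = 0.0197). It was the 1 called gene of 19 in the growth hormone and IGF axis. Cdkn2c, an inhibitor of the cyclin D kinases, was lower by -0.91 (adjusted p = 0.0393). Dnmt3b, the methyltransferase that sets new DNA methylation in development, had 6.00 and 6.05 in 6Y, 4.99 and 5.05 in 16Y and 4.89 and 4.71 in 42Y. Its difference of -1.22 (standard error 0.13, adjusted p = 0.0103) was the 1 call among 14 DNA methylation writers and erasers.

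Matrix genes were called in the lower direction alone. Sparc, a collagen-binding matrix protein, had 9.78 and 10.06 in 6Y, 7.996 and 8.27 in 16Y and 8.50 and 8.41 in 42Y (difference -1.46, standard error 0.14, adjusted p = 0.00815). The 16Y arrays were slightly below the 42Y arrays and the groups did not overlap. Col3a1, the fibrillar collagen III chain, had 6.65 and 7.25 in 6Y, 5.80 and 5.75 in 16Y and 5.66 and 5.37 in 42Y (difference -1.44, adjusted p = 0.0254). Col1a2, Col15a1 and Lum, a collagen I chain, a basement membrane collagen and the proteoglycan lumican, were called lower too. Thus 5 of 33 extracellular matrix and fibrosis genes were called lower, against 0.958% of all genes, and none was called higher. All 5 had 16Y nearer 42Y. The list median was -0.36. Of 16 stellate cell and fibroblast markers, 13 had a lower mean in 42Y and 1, Col3a1, was called, and their summed signal was 11.15 and 11.56 in 6Y against 11.17 and 10.87 in 42Y. Liver endothelial markers had 15 of 16 means lower and none called, with a summed signal of 12.13 and 12.52 in 6Y, 11.27 and 11.59 in 16Y and 12.00 and 11.66 in 42Y. In whole liver, fewer cells of a type and less RNA per cell cannot be told apart, and the part of these cells in the matrix genes was not tested. Without 42Y-1 1 of the 5 matrix calls was left, without 42Y-2 and without 6Y-1 2 each, and without 6Y-2 none.

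Interferon-stimulated genes, which respond to type I and II interferon in antiviral defence, had 4 of 30 members called lower and none higher. All 4 had 16Y nearer 42Y, and 0.958% of all genes were called lower. Ifit1, which binds foreign RNA ends, had 5.93 and 5.77 in 6Y, 4.18 and 4.73 in 16Y and 4.24 and 4.53 in 42Y (difference -1.46, standard error 0.26, adjusted p = 0.0455). Ddx58, the RNA sensor RIG-I, had 7.48 and 7.46 in 6Y, 6.74 and 6.71 in 16Y and 6.76 and 6.73 in 42Y (difference -0.72, adjusted p = 0.0184). For both genes 16Y and 42Y overlapped. Cmpk2, a mitochondrial nucleotide kinase, and Irgm1, an immunity-related GTPase, were lower by -1.17 and -0.67. The list median was -0.39 in 42Y and -0.45 in 16Y. Of these 4 calls, that of Ddx58 was the 1 left without 42Y-2, and none was left without 42Y-1, 6Y-1 or 6Y-2. The 14 Kupffer cell markers all had a lower mean in 42Y with none called, and their summed signal was 11.20 and 11.62 in 6Y against 11.15 and 10.78 in 42Y. Their part in the interferon genes was not tested.

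The promoters of interferon genes carry the interferon-stimulated response element. Its core letters, a pair of GAAA with any 2 bases between, were searched on both strands in the 250 bases before each transcription start of the RefSeq table for GRCm38.p6. They were present for 11 of the 22 list members with a promoter there, against 3.46% of all 27025 genes. The Ifit1 window, chr19:34640725-34640873 on the plus strand, is shown because it holds the letters at 2 places, 104 and 85 bases before the start, in capitals and read on the minus strand.
Ifit1: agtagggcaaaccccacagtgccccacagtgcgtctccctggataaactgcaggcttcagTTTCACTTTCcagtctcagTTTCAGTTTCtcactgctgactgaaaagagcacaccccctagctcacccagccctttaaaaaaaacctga

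A few genes of lipid synthesis were called lower in 42Y, with 16Y nearer 42Y. Acacb, the acetyl-CoA carboxylase at mitochondria whose product restrains fatty acid oxidation, had 8.26 and 8.24 in 6Y, 7.39 and 7.41 in 16Y and 6.94 and 7.39 in 42Y (difference -1.09, standard error 0.15, adjusted p = 0.0232). Fads2, a desaturase for polyunsaturated fatty acids, was lower by -0.73 (adjusted p = 0.0357), and these were the 2 called of 25 fatty acid and triglyceride synthesis genes. All 20 cholesterol synthesis and SREBP2 target genes had a lower mean in 42Y than in 6Y, with a list median of -1.004, but 1 was called. That was Mvk, mevalonate kinase, with 7.39 and 7.61 in 6Y, 6.12 and 6.43 in 16Y and 6.56 and 6.62 in 42Y (difference -0.91, adjusted p = 0.0443). Against 6Y the 16Y arrays had a list median of -1.27 and 5 genes called lower (0.456% of all genes were), Mvk, Sqle, Lss, Tm7sf2 and Stard4. Sqle, squalene epoxidase, had 8.67 and 9.08 in 6Y, 6.05 and 5.50 in 16Y and 6.74 and 7.92 in 42Y, so the 42Y arrays stood between the other groups and apart from each other (adjusted p = 0.17 for 42Y against 6Y). In the 42WKK arrays Sqle was at 9.07 and 8.57, which overlaps 6Y. The core of the sterol element SRE-1 was searched on both strands of the promoter windows from the RefSeq table. It was in 0 of the 16 list members with a window there and in 0.081% of all genes. With a core this rare a match among 16 genes was unlikely in any case, so the search was uninformative for this list.

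Several metabolic genes of the liver had the same pattern without belonging to a list that moved. Cyp2c68, a cytochrome P450, had 8.96 and 9.07 in 6Y, 6.78 and 6.43 in 16Y and 6.74 and 6.42 in 42Y (difference -2.43, standard error 0.23, adjusted p = 0.00815). Abcd2, a peroxisomal transporter of long acyl-CoAs, had 5.53 and 5.30 in 6Y, 3.41 and 3.62 in 16Y and 3.67 and 3.65 in 42Y (difference -1.76, adjusted p = 0.0103). Fabp5, a fatty acid binding protein, had 8.04 and 8.67 in 6Y, 5.34 and 5.67 in 16Y and 6.20 and 6.38 in 42Y (difference -2.07, adjusted p = 0.0319). For Cyp2c68 the 16Y and 42Y arrays overlapped, for Abcd2 and Fabp5 the 16Y arrays were below 42Y. Car2, a carbonic anhydrase, was lower by -1.52, Cdh1, the epithelial cadherin, by -0.90, and Hsd3b7, a bile acid synthesis enzyme, by -0.60. Hsd3b5, a male-specific steroid dehydrogenase, had 10.18 and 9.84 in 6Y, 8.22 and 8.05 in 16Y and 9.20 and 8.93 in 42Y, so that the 42Y arrays lay between the others. Its difference was -0.94 from 6Y (adjusted p = 0.036) and 0.93 from 16Y (adjusted p = 0.0543). Fut8, a fucosyltransferase that the study followed, was lower by -0.81 (adjusted p = 0.0441). Its call was kept with quantile normalization but lost with median centring and with the replicate numbers as a block. It was also lost with the 6 KK-Ay arrays alone and when any 1 of those arrays was left out. Dnmt1 (-0.33, adjusted p = 0.213), Nt5c2 (-0.15, adjusted p = 0.611) and Insr (0.12, adjusted p = 0.687), the other genes the study followed, did not pass. For Nt5c2 and Fut8 the study set KK-Ay mice against KK controls, a different comparison from 42Y against 6Y.

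Other genes with 16Y nearer 42Y were higher in 42Y, and several of them had gone only part of the way in 16Y. Mrap2, a partner protein of melanocortin receptors, had 3.55 and 3.31 in 6Y, 6.05 and 6.41 in 16Y and 7.28 and 7.54 in 42Y. The groups were ordered without overlap, and the 42Y minus 6Y difference of 3.98 (standard error 0.17, adjusted p = 0.000621) was 15.7-fold. Mrap2 also differed between 42Y and 16Y, by 1.18 (adjusted p = 0.0349). In the 42WKK arrays, which do not carry Ay, it was at 7.47 and 7.34, overlapping 42Y. Sema3e, a secreted guidance protein for vessels and axons, had 3.74 and 3.64 in 6Y, 5.47 and 5.53 in 16Y, 7.14 and 6.66 in 42Y and 6.94 and 6.81 in 42WKK. Its difference was 3.21 from 6Y (standard error 0.17, adjusted p = 0.00117) and 1.40 from 16Y (adjusted p = 0.0349). Mrap2 and Sema3e kept their calls in 42Y against 6Y without each of the 4 compared arrays, and they were the 2 clusters nearer 42Y that were still called in 42Y against 16Y.

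In other members of this class the 16Y mean was above the 42Y mean. Slc8a1, a sodium-calcium exchanger, had 2.62 and 3.69 in 6Y, 8.06 and 8.15 in 16Y and 5.72 and 7.62 in 42Y, with the 42Y arrays far apart (difference 3.51, standard error 0.57, adjusted p = 0.0373). Orm3, an orosomucoid of the acute phase, had 4.91 and 6.25 in 6Y, 8.33 and 8.87 in 16Y and 8.12 and 8.66 in 42Y (difference 2.81, adjusted p = 0.0412). Cyp2b10, the main target of the xenobiotic receptor CAR, had 9.65 and 9.48 in 6Y, 11.55 and 11.55 in 16Y, 11.02 and 10.88 in 42Y and 7.69 and 8.20 in 42WKK. For Cyp2b10 the 42Y arrays were above 6Y by 1.38 (adjusted p = 0.0221) and the KK arrays below. For Fitm1, Gadd45g and Sult1e1 both 16Y arrays were still below both 42Y arrays. Fitm1, which helps lipid droplets form, was higher by 1.61, Gadd45g, a stress and growth arrest gene, by 1.54, and Sult1e1, the estrogen sulfotransferase, by 1.23 at low signals of 1.96 to 3.35. Rnase2a, a ribonuclease of eosinophils and macrophages, was higher by 3.13 (adjusted p = 0.0319). Of 27 acute phase proteins, 3 were called higher, against 0.657% of all genes. They were Orm3 with 16Y nearer 42Y, Serpina3n between (1.11) and Socs3 with 16Y nearer 6Y. Without 42Y-2 1 of these 3 was left, and without 42Y-1, 6Y-1 or 6Y-2 none.

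**Figure D2:**
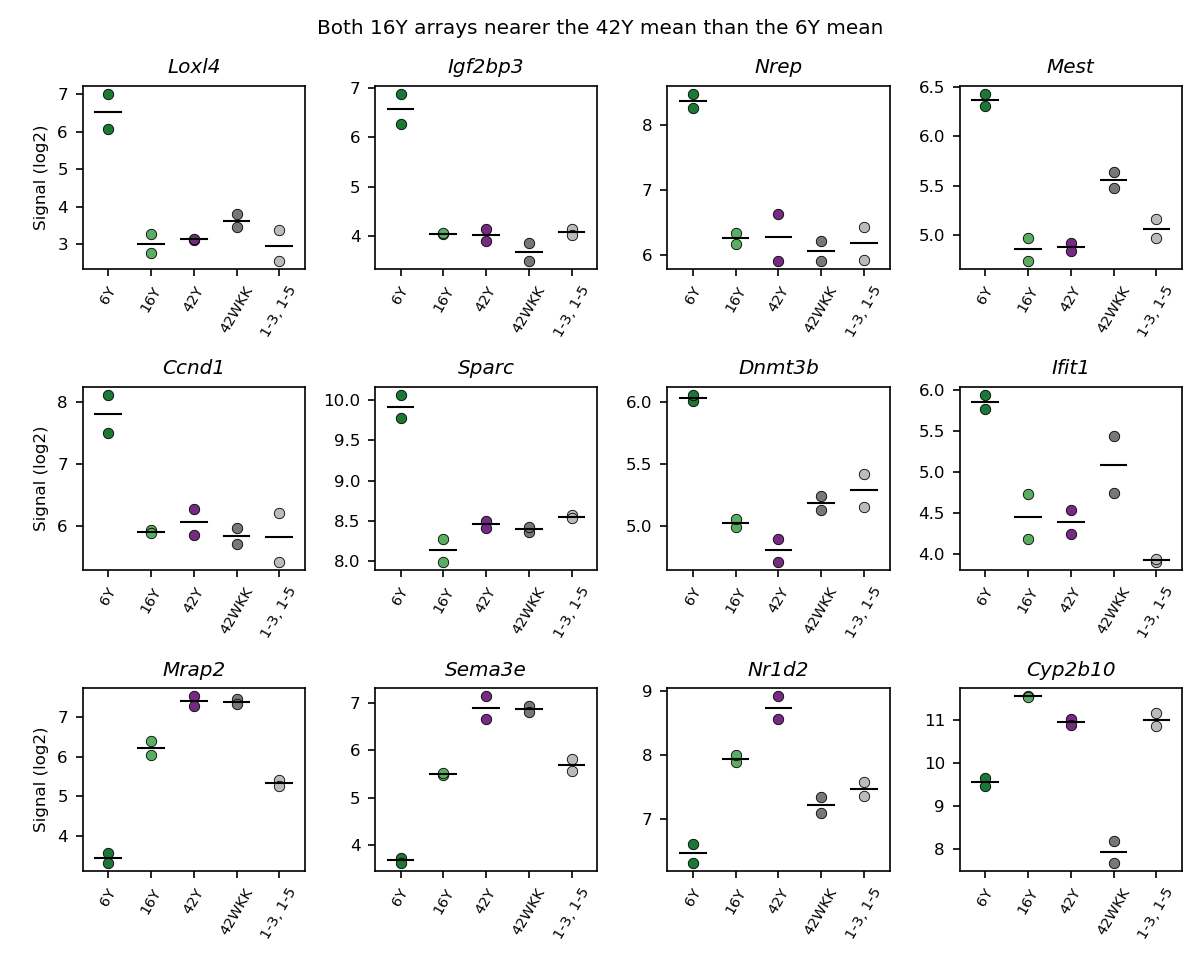
Log2 signal (y axis) of 12 named genes whose 16Y arrays both lay nearer the 42Y mean, by group (x axis), 1 point per array with 2 arrays a group and a line at the mean. For Igf2bp3 the 16Y points lie between the 42Y points and for Mest on both sides of them, while Mrap2 and Sema3e at 16Y lie between 6Y and 42Y.

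Circadian clock genes differed in both directions. Of 18 clock and output genes 6 were higher in 42Y (Nr1d1, Nr1d2, Dbp, Tef, Per3 and Bhlhe41) and 1 was lower (Arntl), with a list median of 0.87. Over all genes 0.657% were called higher and 0.958% lower. Arntl, the activator of the loop, had 7.54 and 7.60 in 6Y, 7.30 and 7.38 in 16Y and 5.62 and 5.67 in 42Y, a difference of -1.92 (standard error 0.10, adjusted p = 0.00117). The 42Y arrays stood below all other arrays in the fit, including 7.74 and 7.64 in 42WKK, and 42Y minus 16Y was -1.69 (adjusted p = 0.00775). Nr1d1, the repressor REV-ERB alpha, had 6.09 and 5.95 in 6Y, 8.20 and 9.15 in 16Y, 10.47 and 10.21 in 42Y and 6.96 and 8.41 in 42WKK. Its difference of 4.32 (standard error 0.46, adjusted p = 0.011) was 19.9-fold, and the groups 6Y, 16Y and 42Y did not overlap.

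The clock genes did not share a single 16Y position. For Nr1d1, Nr1d2, Tef and Per3 both 16Y arrays were nearer 42Y, and for Arntl, Dbp and Bhlhe41 both were nearer 6Y. Nr1d2, the second REV-ERB, had 6.62 and 6.32 in 6Y, 7.89 and 8.003 in 16Y and 8.56 and 8.92 in 42Y (difference 2.27, adjusted p = 0.00445). Tef, a transcription factor that acts at D-boxes, had 6.21 and 5.85 in 6Y, 7.14 and 7.18 in 16Y and 7.06 and 7.66 in 42Y (difference 1.33, adjusted p = 0.0319), with 16Y and 42Y overlapping. Dbp, of the same factor family and among the strongest rhythmic genes of the liver, had 5.74 and 5.82 in 6Y, 6.26 and 6.18 in 16Y and 7.81 and 9.01 in 42Y (difference 2.63, adjusted p = 0.0221). Bhlhe41, a repressor that binds E-boxes, had 3.81 and 3.46 in 6Y, 3.96 and 3.84 in 16Y and 4.90 and 5.34 in 42Y (difference 1.48, adjusted p = 0.0177). Cry1 (-0.81, adjusted p = 0.123), Per2 (0.77, adjusted p = 0.0845) and Ciart (2.43, adjusted p = 0.0987) did not pass. The hour at which each liver was taken is not stated, and clock state and group cannot be told apart. The 6 higher calls became 7 without 42Y-1, 5 without 42Y-2 and 1 without either 6Y array, while Arntl and Nr1d2 kept theirs without each of the 4.

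Clock factors act through an E-box (CACGTG) and a D-box (TTATGTAA). The E-box letters were in the 250 bases before a start for 5 of 16 clock genes with a promoter in the table (31.25%), namely Bhlhe41, Ciart, Cry1, Per1 and Tef, against 6.86% of all genes, and the D-box letters for 1 of 16, against 0.977%. The windows of 2 genes that were higher in 42Y are shown with these letters in capitals, Per3 at chr4:151044756-151044915 (minus strand, matches 205 and 158 bases before the start) and Tef at chr15:81802486-81802611 (plus strand, 127 bases before the start).
Per3: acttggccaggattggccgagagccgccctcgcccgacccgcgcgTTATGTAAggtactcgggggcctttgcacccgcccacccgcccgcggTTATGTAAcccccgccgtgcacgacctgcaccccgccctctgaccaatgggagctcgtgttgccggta
Tef: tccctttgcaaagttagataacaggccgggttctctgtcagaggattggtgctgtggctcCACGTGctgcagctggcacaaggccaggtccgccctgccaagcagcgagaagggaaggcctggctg

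**Figure D3:**
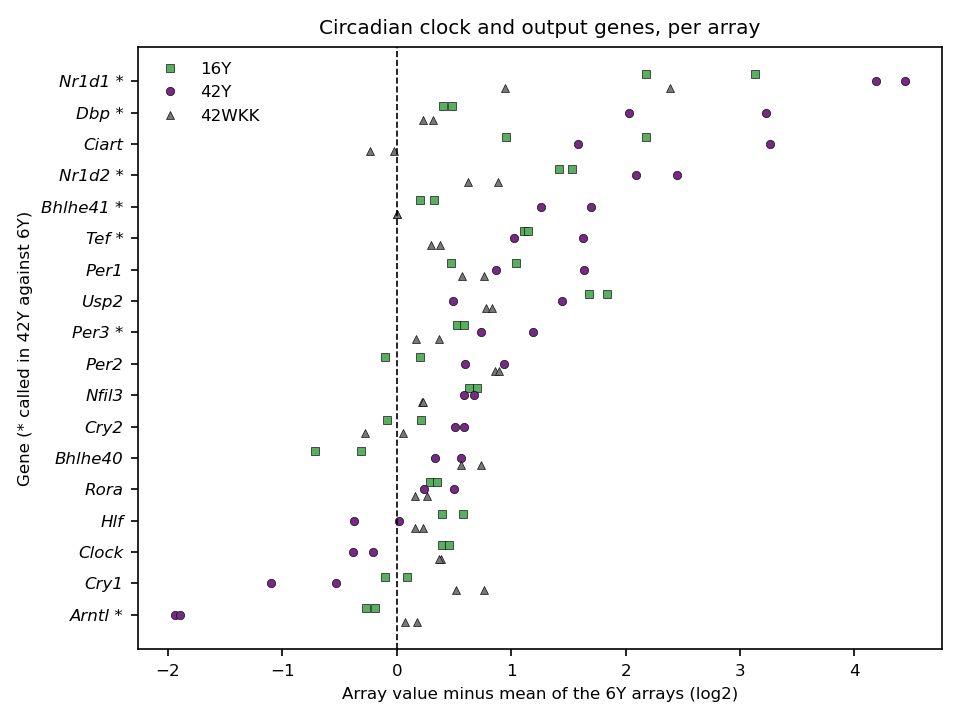
Each array's log2 value minus the mean of the 6Y arrays (x axis) for 18 circadian clock and output genes (y axis, an asterisk marks the 7 called in 42Y against 6Y), for 2 arrays each of 16Y (squares), 42Y (circles) and 42WKK (triangles). Arntl lies near 0 in 16Y and 42WKK and near -1.92 in 42Y, while the 16Y arrays of Nr1d1 and Nr1d2 lie between 0 and the 42Y arrays.

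A chemokine, 3 immediate early genes and 3 of the 5 called heat shock genes were higher in 42Y with 16Y nearer 6Y. Cxcl1, a chemokine that draws neutrophils, had 6.40 and 6.39 in 6Y, 6.64 and 6.37 in 16Y and 10.62 and 9.55 in 42Y, a difference of 3.69 (standard error 0.37, adjusted p = 0.00967), 12.9-fold. The 16Y and 6Y arrays overlapped, and 42Y minus 16Y was 3.58 (adjusted p = 0.0317). The 42WKK arrays had 6.28 and 7.10. Cxcl1 was the 1 called gene of 29 chemokines and chemokine receptors, whose median difference was -0.01. Of 14 neutrophil markers 2 were called higher, against 0.657% of all genes. They were Cxcr2, the receptor for CXCL1 (2.56 and 2.96 in 6Y, 3.82 and 4.55 in 42Y), and Retnlg (3.94 and 4.43 in 6Y, 5.23 and 5.62 in 42Y). Cxcr2 kept its call without 42Y-1, and neither was called without 42Y-2, 6Y-1 or 6Y-2. The granule genes Mpo, Elane and Camp lay at 3.94 to 4.82 in all of these arrays. The list's summed signal came to 9.90 and 12.09 for the 6Y arrays and 11.97 and 12.31 for 42Y, most of it from Lcn2, which hepatocytes also make and which differed between 6Y-1 (9.54) and 6Y-2 (11.99). The part of neutrophils in Cxcl1 was not tested. The call for Cxcl1 was not kept without every one of the compared arrays.

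The NF-kB family acts at sites of the form GGGA, any 2 bases, TTCC, a motif chosen after the values were seen. These letters were in the searched window of 3 of the 20 chemokine list members with a promoter there, Cxcl1, Cxcl2 and Cxcl10, against 1.36% of all genes. The Cxcl1 window lies at chr5:90891114-90891244 on the plus strand, and overlapping matches on both strands, starting 71 and 70 bases before the start, are in capitals.
Cxcl1: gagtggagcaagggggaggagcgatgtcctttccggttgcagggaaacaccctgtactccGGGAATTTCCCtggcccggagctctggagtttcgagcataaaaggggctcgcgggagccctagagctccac

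Of 22 immediate early genes, which respond to stimuli before new protein is made, 3 were called higher, against 0.657% of all genes, and none lower. The list median was 0.52 in 42Y and -0.02 in 16Y. Btg2, an antiproliferative gene, had 5.77 and 5.58 in 6Y, 6.27 and 6.58 in 16Y and 9.19 and 7.88 in 42Y (difference 2.86, standard error 0.38, adjusted p = 0.0221). Klf6, a zinc finger transcription factor, had 5.59 and 5.82 in 6Y, 5.74 and 5.72 in 16Y and 8.13 and 7.19 in 42Y (difference 1.96, adjusted p = 0.0261). Junb, an AP-1 subunit, was higher by 1.40 (adjusted p = 0.0345). In all 3 genes 42Y-1 was above 42Y-2 and both were above the 16Y and 6Y arrays. Socs3, which restrains cytokine and insulin signalling, had 5.31 and 5.83 in 6Y, 5.91 and 6.08 in 16Y and 8.42 and 7.14 in 42Y (difference 2.21, adjusted p = 0.0488), and was the 1 call among 19 genes of the insulin receptor and its proximal signalling. Tifa, an adaptor of NF-kB signalling, had 5.80 and 6.26 in 6Y, 6.36 and 6.42 in 16Y and 8.12 and 8.997 in 42Y (difference 2.52, adjusted p = 0.0167). The count of 3 immediate early genes became 9 without 42Y-2, 2 without 42Y-1 and 0 without either 6Y array.

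Heat shock chaperones, which refold damaged proteins, had 5 of 13 members called higher, against 0.657% of all genes. The list median was 1.18 in 42Y against 0.08 in 16Y. Hsph1, a large HSP110 chaperone, had 7.84 and 8.28 in 6Y, 8.19 and 8.12 in 16Y and 10.14 and 9.49 in 42Y (difference 1.75, standard error 0.24, adjusted p = 0.0226), with 16Y among the 6Y arrays. Bag3, a cochaperone of HSP70, was higher by 1.76 and Dnaja1, an HSP40, by 1.01, both with 16Y nearer 6Y. Hspa8, the constitutive HSP70, and Hspb8, a small heat shock protein, were higher by 1.18 and 1.46 with the 16Y arrays on both sides of the midpoint. The inducible Hspa1a (7.48 and 6.24 in 42Y, 5.52 and 5.73 in 6Y) and Dnajb1 (9.82 and 7.78 in 42Y, 6.75 and 6.89 in 6Y) did not pass, and in both 42Y-1 was well above 42Y-2. High chaperone signals were not limited to 42Y. Hsph1 was at 9.40 and 9.64 in 42WKK, overlapping 42Y, and at 8.79 and 9.03 in the controls 1-3 and 1-5. The count of 5 became 2 without 42Y-1, 7 without 42Y-2, 0 without 6Y-1 and 1 without 6Y-2.

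Heat shock factor binds inverted repeats of the form GAANNTTC, a motif chosen after the values were seen. These letters were in the searched window of 5 of the 10 heat shock list members with a promoter in the table, against 7.73% of all genes. Dnaja1, called higher, is shown at chr4:40722284-40722411 on the plus strand, with the match 124 bases before the start.
Dnaja1: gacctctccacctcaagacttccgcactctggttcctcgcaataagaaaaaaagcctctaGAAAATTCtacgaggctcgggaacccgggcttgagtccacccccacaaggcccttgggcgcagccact

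The genes of 2 secreted proteins and 1 antioxidant gene were also higher in 42Y with 16Y nearer 6Y. Nrg4, a secreted ligand of the ErbB4 receptor, had 5.41 and 5.75 in 6Y, 6.51 and 6.80 in 16Y and 8.63 and 8.10 in 42Y (difference 2.78, standard error 0.25, adjusted p = 0.00815). Inhbb, the beta B subunit of activin, had 4.70 and 4.95 in 6Y, 4.99 and 4.67 in 16Y and 6.34 and 6.34 in 42Y (difference 1.51, adjusted p = 0.011), the 1 call among 20 hepatokines and secreted regulators, whose median was 0.00. Nrg4 and Inhbb also differed between 42Y and 16Y (adjusted p = 0.0399 and 0.0334), and for both the KK arrays at 42WKK lay in or below the range of 6Y, at 5.49 and 5.63 and at 4.83 and 4.54. Hmox1, heme oxygenase, had 6.56 and 6.85 in 6Y, 7.25 and 7.49 in 16Y, 8.76 and 8.59 in 42Y and 8.56 and 8.28 in 42WKK. It was the 1 call among 17 NRF2 targets (difference 1.98, adjusted p = 0.00815), whose median was 0.02.

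Single genes of lipid, glycogen and iron metabolism were among those lower in 42Y with 16Y nearer 6Y. Cyp4a14, a fatty acid omega-hydroxylase and a sensitive target of PPAR alpha, had 7.94 and 8.08 in 6Y, 9.24 and 9.53 in 16Y and 3.72 and 4.61 in 42Y. The 16Y arrays were above both 6Y arrays and the 42Y arrays far below, so that 42Y was lower by -3.85 from 6Y (standard error 0.36, adjusted p = 0.00815, 14.4-fold) and by -5.22 from 16Y (adjusted p = 0.00904). The 42WKK arrays lay between, at 5.94 and 6.50. Cyp4a14 was the 1 call among 23 fatty acid oxidation and PPAR alpha target genes, whose median difference was -0.37 in 42Y and 0.27 in 16Y. In 42Y against 16Y, Cyp4a10, Cyp4a31, Acot1 and Pex11a were called lower as well, against 0.155% of all genes. Cyp4a10 had 7.15 and 7.70 in 6Y, 9.29 and 9.38 in 16Y and 5.03 and 6.37 in 42Y, which did not pass against 6Y (-1.73, adjusted p = 0.147). The CYP4A genes are close paralogs, and shared probes cannot be told apart here. Without 6Y-1 or 6Y-2 Cyp4a14 was no longer called against 6Y.

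Ppp1r3c, which directs a phosphatase to glycogen, had 8.80 and 8.40 in 6Y, 9.19 and 9.49 in 16Y and 6.26 and 7.27 in 42Y (difference -1.83, adjusted p = 0.0431). It was the 1 call among 20 genes of glycolysis, gluconeogenesis and glycogen. Elovl3, a fatty acid elongase of the male liver under clock control, had 12.50 and 12.28 in 6Y, 12.10 and 12.22 in 16Y, 10.98 and 10.94 in 42Y and 12.44 and 12.33 in 42WKK. The 42Y arrays were below all others in the fit at -1.43 from 6Y (standard error 0.12, adjusted p = 0.00584). Nckap5, of unsettled function, had 6.35 and 6.22 in 6Y, 5.77 and 5.69 in 16Y and 4.68 and 4.66 in 42Y (difference -1.62, adjusted p = 0.00154), and both it and Elovl3 kept their calls without each of the 4 compared arrays. Hjv, hemojuvelin, which switches on hepcidin, was lower by -1.36 (adjusted p = 0.0345) as the 1 call among 22 iron and metallothionein genes. The gene 4932438A13Rik is covered by 19 clusters, of which 13 were called lower by -1.09 to -0.65 with 16Y nearer 6Y in all 13, so these counts are not separate genes.

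**Figure D4:**
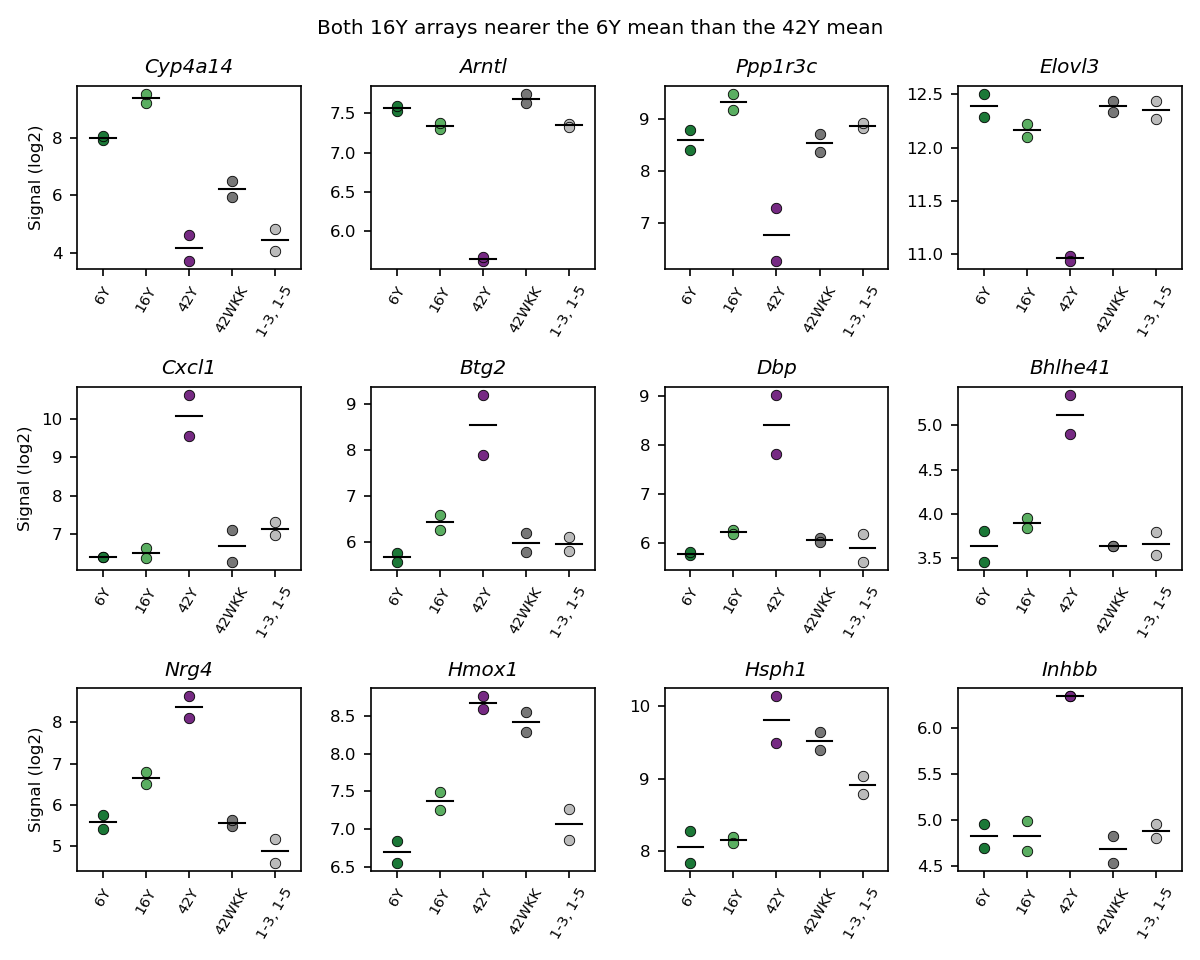
Log2 signal (y axis) of 12 named genes whose 16Y arrays both lay nearer the 6Y mean, by group (x axis), 1 point per array with 2 arrays a group and a line at the mean. Arntl, Elovl3, Cxcl1 and Inhbb have the 42Y points apart from all other arrays shown, while Hmox1 and Hsph1 are also high in 42WKK.

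A smaller set had its 16Y arrays on both sides of the midpoint. Igkv5-43, an immunoglobulin kappa variable segment, had 2.50 and 3.72 in 6Y, 4.16 and 4.98 in 16Y and 6.60 and 6.24 in 42Y (difference 3.31, standard error 0.55, adjusted p = 0.0393). Jchain, the joining chain of secreted IgA and IgM, had 3.45 and 3.48 in 6Y, 4.23 and 4.83 in 16Y and 5.75 and 5.02 in 42Y (difference 1.92, adjusted p = 0.0289), the 1 call among 14 B and plasma cell markers. Ms4a1 and Cd79a, which define B cells, were at 2.59 to 3.44 in all 6 arrays. The part of plasma cells in the immunoglobulin genes was not tested. Serpina12, the adipokine vaspin, was higher by 1.71 and Grm8, a glutamate receptor, by 1.68. Cldn1, a tight junction protein, was lower by -1.61 and Spon2, a secreted matrix protein, by -1.36.

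Across the 49 lists, 32 had at least 1 member called and 17 had none. Over all genes 1.62% were called. A list can hold a call by its size alone, so this count is not a result about the lists. Among the lists with none were the unfolded protein and integrated stress response (28 genes, 23 means higher, median 0.30), complement and coagulation (33 genes, median -0.12), the mitochondrial respiratory chain (34 genes, median -0.10) and amino acid catabolism and urea cycle (26 genes, median 0.09). Atf3, a stress-induced transcription factor, had 5.16 and 5.34 in 6Y, 5.14 and 4.96 in 16Y and 7.20 and 6.16 in 42Y, which did not pass (1.43, adjusted p = 0.0805). Of the 13 cell type lists 9 had no call. These counts do not show that the lists without a call were unchanged.

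**Figure D5:**
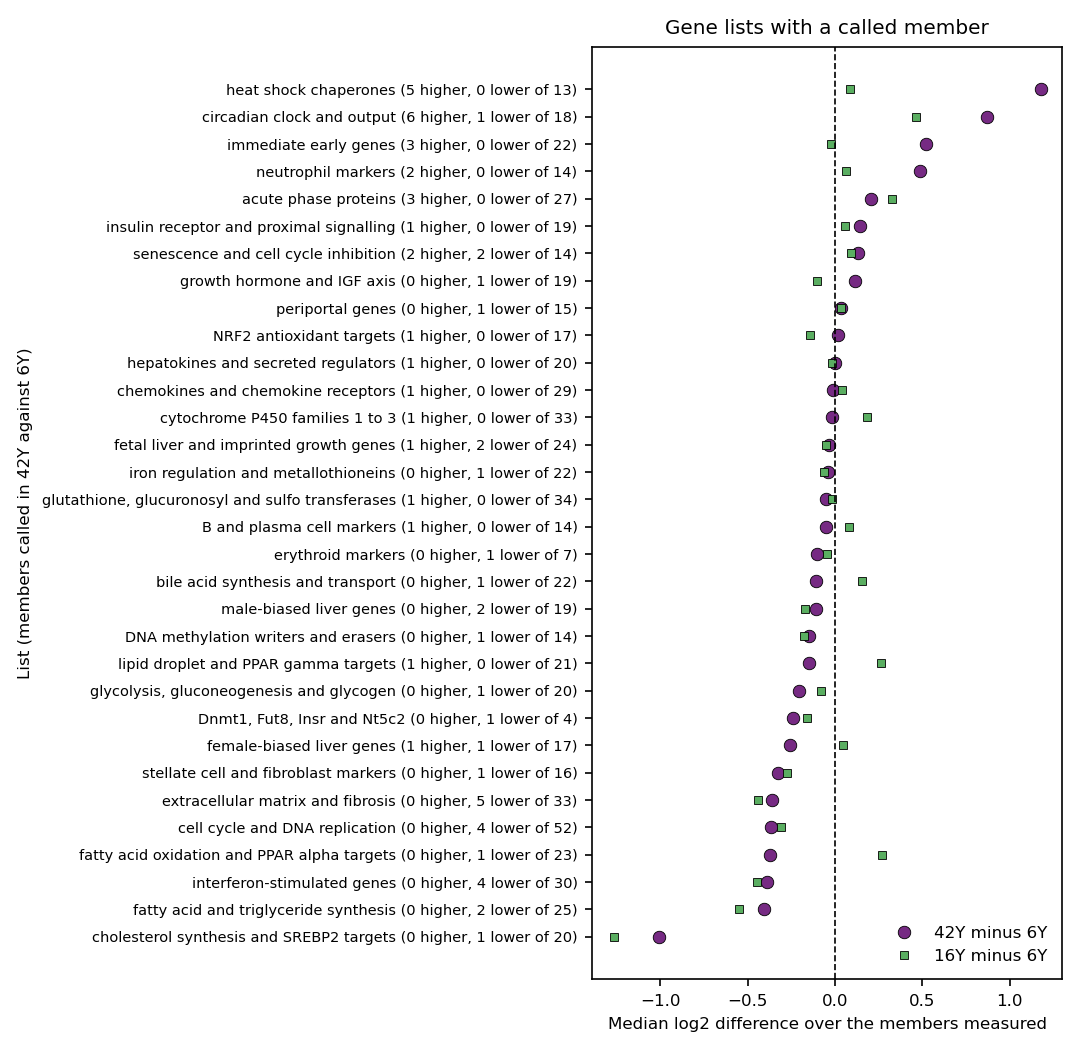
Median log2 difference (x axis) over the measured members of each of the 32 lists with a called member (y axis, with the number called higher and lower of those measured), as circles for 42Y minus 6Y and squares for 16Y minus 6Y, which share the 6Y arrays. Heat shock chaperones and immediate early genes have medians of 1.18 and 0.52 in 42Y but 0.08 and -0.02 in 16Y, while cell cycle and matrix genes have like medians in both.

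The arrays outside the comparison were placed by the same rule, as a description. For the 480 clusters the 42WKK arrays were both nearer 42Y in 161 and both nearer 6Y in 257, and the controls 1-3 and 1-5 in 213 and 214. Of the 264 lower clusters, the 42WKK arrays were both nearer 42Y in 92, Igf2bp3 among them, and both nearer 6Y in 128. The 6K arrays were both nearer 6Y in 403 (83.96%) and both nearer 42Y in 18. Their records conflict, but they lacked the high agouti signal of 6Y, 16Y and 42Y. Among the 108 higher clusters with 16Y nearer 6Y, 42Y-1 was farther from 6Y than 42Y-2 in 75, and the arrays were a median of 0.23 apart. Among the 75 higher clusters with 16Y nearer 42Y, 42Y-1 was farther in 40, and the arrays were a median of 0.18 apart.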

How the data were processed

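Gene expression in 12 mouse arrays was analysed from the deposited log2 values, which the authors made by robust multichip analysis (sketch) in Affymetrix Expression Console, as the methods and the submitters' processing notes name. An exon array is named in the methods, but the cluster identifiers belong to the gene array, and its genome build is not stated. Arrays were grouped by title. A model with a mean for each of 5 groups was fitted over 10 arrays (limma 3.58.1, lmFit and eBayes without trend, R 4.3.3), with Benjamini-Hochberg adjustment of p over 35556 clusters. Symbols were updated to GRCm38.p6 where identifiers matched (21698 of 21789 single-symbol clusters), and a gene is its brightest single-symbol cluster. Differences are log2, with no pseudocount.

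The groups, the 49 gene lists and the members were chosen with earlier results of these data known. Named genes were the 10 largest differences each way, the 5 largest each way in each class of 16Y position, up to 4 called members per list (up to 2 where none was called) and genes of the agouti locus and the study. Predicted genes and clusters outside this rule (4932438A13Rik, Zc3h13, Loxl4 cluster 10467768, and genes given as values) were chosen after their values were seen. Simulated data were used to test the fit. The number of arrays limits the precision. Alternatives tried were normalization, filters, the variance model, the arrays in the fit, each array left out, the replicate numbers as a block and the ANOVA of the authors' table. Columns of the authors' own comparisons were not used. One gene that the naming rule chose is not reported here.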

Additional observations from a re-analysis of the deposited data

How the results depend on the processing

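Calls in 42Y against 6Y were compared over 15 alternative fits. The direction of each named gene was kept in all of them, apart from Raly (main difference -0.05), which ranged from -0.1095 to 0.0136 with each array left out and was 0.0094 without 6Y replicate 2, and the agouti gene a (0.04), which ranged from -0.0982 (without 6Y replicate 2) to 0.1822. None of the 79 named genes called kept its call in every alternative, since 2 clusters were called with the compared arrays alone. Quantile normalization (427 called, 417 of them among the 480), median centring (445, 436 shared) and the fit with 6K as a group (652, 438 shared) moved the count by less than 1.5 times.

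Counts that moved by more are given for 42Y against 6Y (480 called, 216 higher, 264 lower), then 16Y against 6Y (194, 71, 123), then 42Y against 16Y (186, 58, 128), then the 16Y position (233 nearer 42Y, 62 between, 185 nearer 6Y). With the 6 KK-Ay arrays alone they were 40, 23 and 17, then 8, 7 and 1, then 0, 0 and 0, then 25, 0 and 15. With the compared arrays alone they were 2, 2 and 0, then 0, 0 and 0, then 0, 0 and 0, then 2, 0 and 0. With clusters of 1 symbol they were 1060, 403 and 657, then 984, 291 and 693, then 348 and 184 higher, then 541, 159 and 360. With a mean log2 of at least 6 they were 1170, 443 and 727, then 1904, 661 and 1243, then 711, 332 and 379, then 612, 183 and 375. With a variance trend they were 793 and 469 lower, then 1133, 423 and 710, then 373, 153 and 220, then 416, 96 and 281. With 6K as a group 16Y against 6Y gave 634, 207 and 427 and 42Y against 16Y gave 69 lower. Median centring gave 563 and 459 lower in 16Y against 6Y and 96 higher in 42Y against 16Y, which shifts the split toward lower in the former. With limits of 0.75 and 0.25 on the share reached by the 16Y mean, 206 clusters were between and 108 nearer 6Y. A one-way ANOVA as named in the authors' table gave 3062 (1289 higher, 1773 lower) unadjusted and 0 (0 and 0) adjusted, against 5439 by limma at an unadjusted p under 0.05. Fewer clusters tested or fewer arrays in the fit are part of these alternatives, and other causes were not tested.

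Leaving out each array in turn gave 37 to 463 clusters in 42Y against 6Y (19 to 219 higher, 13 to 244 lower), 0 to 334 in 16Y against 6Y (0 to 164 higher, 0 to 170 lower), 0 to 308 in 42Y against 16Y (0 to 122 higher, 0 to 186 lower) and 20 to 116 nearer 42Y, 0 to 34 between and 10 to 318 nearer 6Y. The lone array left in a group is assumed to vary like the other groups. Many of the clusters called without 42Y-1 or without 42Y-2 were not among the 480. Of the 480, 21 clusters (12 higher, 9 lower) stayed called without each of the 4 compared arrays, 12 of them nearer 42Y in 16Y and 7 nearer 6Y. Deviations of arrays with the same replicate number correlated at 0.03 (42Y and 6Y), -0.04 (42Y and 16Y) and 0.05 (16Y and 6Y). Over all clusters no pairing by these numbers was seen, and pairing limited to some genes was not tested. With the replicate block 270 clusters were called in 42Y against 6Y (143 higher, 127 lower, 244 of them among the 480), 113 in 16Y against 6Y (50 lower) and 158 in 42Y against 16Y, and 116 were nearer 42Y and 109 nearer 6Y. Precision is limited by 2 arrays a group.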
